A study of Rattus norvegicus with 15 samples.

Results

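The genes that carry peptides to CD4 T cells on MHC class II molecules were followed through prostate tissue of SD rats. They are 8 of the 22436 genes in the deposited expression table: RT1-Ba and RT1-Bb, the α and β chains of the rat class II molecule RT1-B; RT1-Da and RT1-Db1, the chains of RT1-D; RT1-DMa and RT1-DMb, the chains of the peptide editor RT1-DM; Cd74, the invariant chain; and Ciita, the class II transactivator. The 8 genes were chosen by name for their role, with their values in these samples already known. Their levels and changes are therefore a description without a test. Tests are given for genes outside the set, which were also listed with earlier results of these data known.

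The series measured RNA by sequencing in 15 samples of 3 groups of 5, each group numbered 6 to 10, so that Model_7 is replicate 7 of the Model group. Control was untreated prostate, Model came from a rat model of prostatitis without ultrasound, and LIPUS came from the model after 4 weeks of low-intensity pulsed ultrasound, sound waves applied as a physical treatment. The sample titles and the treatment field give different ultrasound intensities, so no intensity is stated here. Nothing in the labels gives the age or sex of the animals, how prostatitis was induced, which prostate lobe was taken or whether each sample is its own animal. The p-values therefore reflect only how much these samples vary, and that variation may be technical.

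In a class II-positive cell the α and β chains pair in the endoplasmic reticulum around the invariant chain Cd74, which fills the peptide groove and steers the complex to endosomes. Proteases there cut Cd74 down, DM swaps the remaining fragment for peptides of antigen, and the loaded molecule goes to the surface, where CD4 T cells read it. Dendritic cells, B cells and macrophages carry the machinery constitutively, and interferon gamma can induce it in epithelium through CIITA, which docks on RFX and NF-Y proteins bound to the X and Y boxes in front of class II genes.

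Stretches of promoter are shown for 6 of the 8 genes because the X and Y boxes are the sites through which this set is known to be switched on together. The sequences are RefSeq's on build GRCr8, a later build than the rn6 named for the expression values, and run 5′ to 3′ on the strand of the gene. They were read from windows of 250 bases before to 50 bases after the gene start. Capitals mark the X box core TNGCNAC and the Y box core ATTGG, letters that were chosen after the sequences had been looked at.
RT1-Ba: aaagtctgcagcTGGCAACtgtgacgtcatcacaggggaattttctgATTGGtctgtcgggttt
RT1-Da: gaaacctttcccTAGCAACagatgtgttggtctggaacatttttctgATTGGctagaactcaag
RT1-Db1: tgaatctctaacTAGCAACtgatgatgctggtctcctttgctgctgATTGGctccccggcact
RT1-DMa: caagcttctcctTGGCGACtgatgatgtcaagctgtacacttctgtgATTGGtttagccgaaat
RT1-Bb: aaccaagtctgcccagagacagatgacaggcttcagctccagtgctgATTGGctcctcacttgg
Cd74: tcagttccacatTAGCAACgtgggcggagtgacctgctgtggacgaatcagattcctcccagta

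They lie at chr20:4576967-4577030 on the plus strand (RT1-Ba), chr20:4515319-4515382 on the plus strand (RT1-Da), chr20:4560226-4560288 on the minus strand (RT1-Db1), chr20:4712383-4712446 on the minus strand (RT1-DMa), chr20:4604163-4604226 on the minus strand (RT1-Bb) and chr18:56527122-56527185 on the plus strand (Cd74), each wholly upstream of the annotated gene start. In RT1-Ba, RT1-Da and RT1-DMa the X core was followed by the Y core after 28 bases, and in RT1-Db1 after 27 bases. RT1-Bb showed a Y core and no match to the X core letters in its window. Other forms of the X box were not searched for, so this does not show that RT1-Bb lacks one. Cd74 showed an X core and no Y core on the gene strand, although the reverse letters CCAAT occurred once farther upstream. Both strands were searched. Among 33469 promoter windows of the same length, 29.3% held the X core on either strand and 37.5% the Y core. An X core followed by a Y core 12 to 30 bases later on the same strand was found in 0.708% of them, 237 windows. Of 24 other class II pathway genes with a window, RT1-DOb alone held that arrangement. A match of letters is a description of the window and does not show that a protein binds there. Nor does the lack of a match show that a box is absent.

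Libraries held 29675962 to 36402094 reads. The share of reads from 13 mitochondrially encoded genes came to 3.75 to 4.69% in Control, 23.5 to 43.5% in Model and 43.0 to 83.3% in LIPUS. FPKM, fragments per length of gene and per size of library, divides by the whole library, so these shares lowered the FPKM of nuclear genes as a body. The median of all 12490 genes tested changed on the log2 scale by -0.90 in Model relative to Control, by -0.60 in LIPUS relative to Model, and by -1.48 in LIPUS relative to Control. Each change is therefore also given after scaling every library by its median-of-ratios factor, which brought these medians to -0.15, -0.02 and -0.15. Samples also differed in the reads of prostate lobe secretory genes. The ventral lobe genes Scgb1d2, Scgb1d4 and Scgb2a1 took 10.7 to 17.6% of reads in Control, and the dorsolateral genes Pbsn and Msmb took 6.86 to 12.9% in 4 Model samples. Model_7 stood apart from them, with 5.16% ventral and 0.0238% dorsolateral reads. LIPUS samples held 0.269 to 9.63% ventral and 0.229 to 3.14% dorsolateral reads. The part of library make-up and lobe in the results on class II genes was not tested, and values without Model_7 are given where they matter.

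Cd74 had the highest mean level of the 8 genes in each group. In Control its FPKM, in the order of replicates 6 to 10, was 53.1, 52.9, 49.3, 44.9 and 42.2. In Model it was 79.4, 5.86, 47.7, 40.3 and 109, and in LIPUS 19.7, 74.2, 90.3, 62.2 and 33.9. Controls lay close together at 48.5 ± 4.84 (SD, n = 5), while both other groups reached from far below to far above them, at 56.5 ± 39.5 in Model and 56.1 ± 29.0 in LIPUS. After scaling, the means were 28.1 ± 3.06, 57.1 ± 37.6 and 85.4 ± 38.0 FPKM.

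RT1-Da, the α chain of RT1-D, was the most abundant chain. Its FPKM came to 33.1, 33.4, 29.97, 24.1 and 25.2 in Control, 22.2, 2.99, 12.5, 9.40 and 19.3 in Model, and 13.8, 38.0, 77.2, 27.0 and 20.9 in LIPUS. All 5 Model samples lay below all 5 Control samples. LIPUS overlapped both groups, with LIPUS_8 above every other sample and LIPUS_6 and LIPUS_10 below every Control sample.

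RT1-Db1, its β chain partner, did not separate the groups. Values came to 5.04, 8.21, 6.32, 4.69 and 6.18 FPKM in Control, 6.50, 0.774, 5.39, 3.73 and 10.3 in Model, and 2.03, 6.86, 11.8, 11.3 and 3.63 in LIPUS. Model_10 and Model_6 were above the Control mean of 6.09, Model_7 was far below it, and LIPUS ran from below to above the Control range.

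RT1-Bb, the β chain of RT1-B, gave the cleanest separation in the set. Its FPKM came to 1.95, 1.67, 1.38, 1.36 and 2.24 in Control, 0.297, 0.385, 0.200, 0.376 and 0.391 in Model, and 0.916, 1.50, 2.09, 2.74 and 1.54 in LIPUS. Every Model sample was below every sample of the other groups, Model_7 included, and Control and LIPUS overlapped. These values rest on few reads, 10 to 21 in a Model library against 75 to 105 in a Control library and 43 to 136 in a LIPUS library.

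RT1-Ba, the α chain of RT1-B, showed the same low Model level with more spread. It gave 6.33, 4.18, 2.91, 5.70 and 3.18 FPKM in Control, 2.24, 0.440, 1.33, 1.26 and 2.38 in Model, and 1.68, 4.11, 8.82, 2.18 and 4.10 in LIPUS. The highest Model sample lay below the lowest Control sample, while LIPUS_6 and LIPUS_9 lay within the Model range.

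The chains of the peptide editor followed. RT1-DMa gave 9.20, 6.68, 11.3, 11.2 and 5.68 FPKM in Control, 5.40, 0.566, 2.12, 1.88 and 2.55 in Model, and 1.72, 4.78, 9.23, 4.32 and 2.45 in LIPUS. Its Model values were all below the lowest Control value, by a small margin in Model_6, and 4 of 5 LIPUS values were below it too. RT1-DMb gave 4.71, 4.20, 5.92, 4.95 and 3.45 FPKM in Control, 3.11, 0.333, 1.22, 1.21 and 6.08 in Model, and 2.10, 3.47, 6.72, 3.31 and 0.412 in LIPUS. Here the groups overlapped, because Model_10 was above every Control sample.

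Ciita, the transactivator, was near the limit of detection. Its FPKM came to 0.149, 0.260, 0.165, 0.136 and 0.144 in Control, 0.0577, 0, 0.114, 0.154 and 0.208 in Model, and 0, 0.297, 0.277, 0.225 and 0 in LIPUS. The values of 26 to 54 reads in Control libraries and 0 to 58 reads in the others overlapped in all groups. No read was found in Model_7, LIPUS_6 and LIPUS_10, and a count of 0 allows up to 3 reads, or 0.0158, 0.0166 and 0.0152 FPKM in those libraries, for counting error only. Ciita never passed the filter of 0.5 FPKM in at least 5 samples, so 7 of the 8 genes entered the fit.

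**Figure D1:**
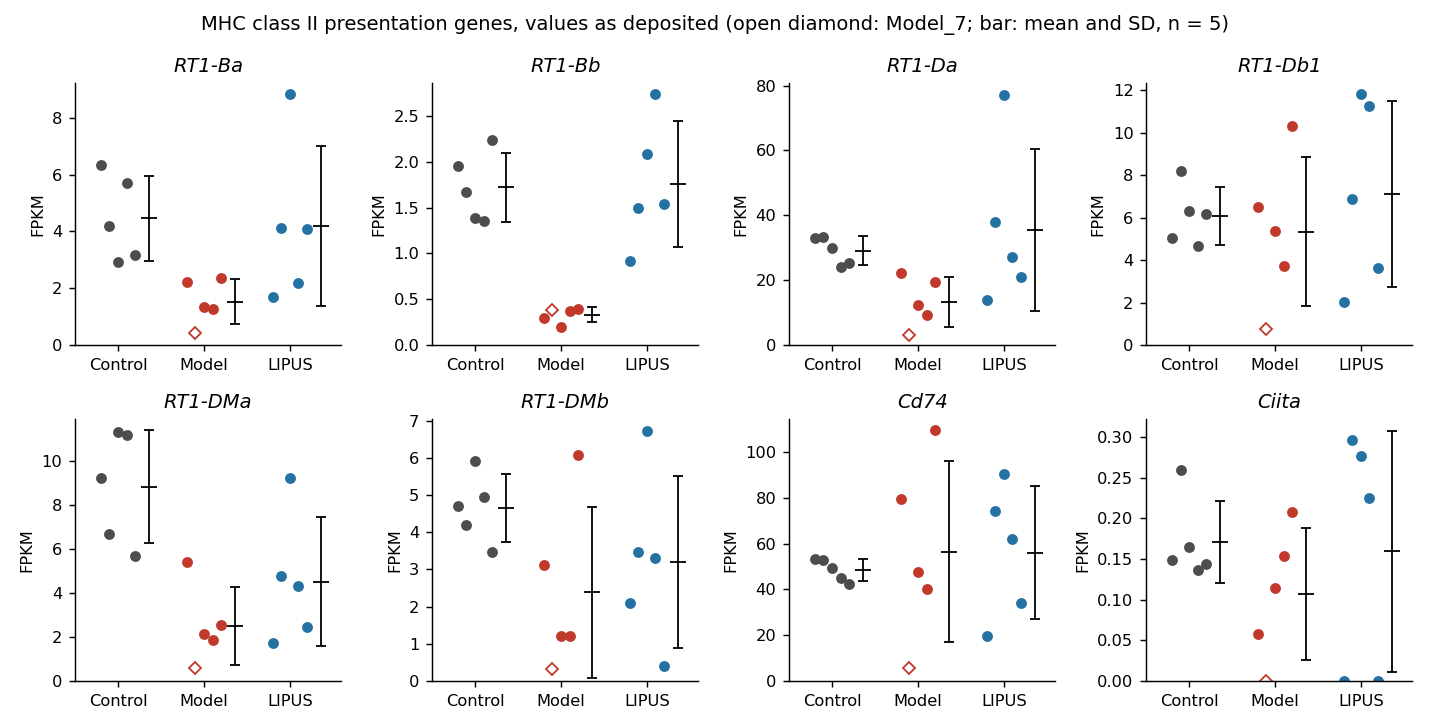
FPKM as deposited of each of the 8 genes (vertical axis, linear, from 0) in Control, Model and LIPUS; each point is 1 sample (open diamond, Model_7) and bars give the mean and SD (n = 5). RT1-Bb in Model, 0.200 to 0.391 FPKM, lies below every sample of the other groups, while Cd74 in Model runs from 5.86 to 109 FPKM.

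Samples tended to be high or low for the whole set. Model_7 was the lowest Model sample for 7 of the 8 genes, and its sum over the 7 genes that passed the filter was 11.35 FPKM against 58.2 to 150.45 in the other Model samples. LIPUS_6 was the lowest of its group for 6 genes and tied with LIPUS_10 at 0 for Ciita, LIPUS_8 the highest for 6, and Model_10 the highest of its group for 6. Over the 21 pairs of the 7 genes, the Pearson correlation of within-group deviations over the 15 samples ran from -0.07 to 0.95 with a median of 0.71. Without Model_7 it ran from -0.08 to 0.90 with a median of 0.59. The highest was between RT1-Db1 and Cd74, and the lowest between RT1-Bb and RT1-DMb. These values describe samples that share library and depth and carry no test. Since the tissue was measured in bulk, fewer class II-positive cells and less class II RNA per cell cannot be told apart.

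Ratios between genes within a library do not depend on how libraries are scaled. The ratio of Cd74 to the summed RT1-B and RT1-D chains was 1.15, 1.11, 1.21, 1.26 and 1.15 in the Control samples. In Model it was 2.54, 1.28, 2.46, 2.73 and 3.38, above every Control sample, though Model_7 lay only just above the highest of them. In LIPUS it was 1.07, 1.47, 0.904, 1.44 and 1.12. The means of Control, Model and LIPUS were 1.18 ± 0.0581, 2.48 ± 0.764 and 1.20 ± 0.245 (SD, n = 5), so the invariant chain was high relative to the chains it escorts in Model, and LIPUS samples surrounded the Control value. Cd74 made up 46.9 ± 0.773% of the summed FPKM of the 7 genes in Control, 65.6 ± 8.16% in Model and 50.5 ± 5.15% in LIPUS.

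The α to β chain ratio of RT1-D, RT1-Da to RT1-Db1, came to 4.07 to 6.56 in Control, 1.87 to 3.87 in Model and 2.40 to 6.79 in LIPUS. Model lay wholly below Control, and LIPUS_9, at 2.40, was the LIPUS sample within the Model range. For RT1-B the ratio of RT1-Ba to RT1-Bb was 3.35 to 7.54 in 4 Model samples and 1.14 in Model_7, against 1.42 to 4.19 in Control and 0.797 to 4.23 in LIPUS. Across isotypes, RT1-Bb to RT1-Db1 was 0.0371 to 0.101 in 4 Model samples, 0.498 in Model_7, 0.203 to 0.387 in Control and 0.177 to 0.451 in LIPUS. Model_7, low for nearly the whole set, lay outside the range of the other Model samples in each of these ratios.

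RT1-DM relative to the RT1-B and RT1-D chains came to 0.331 ± 0.101 in Control, 0.223 ± 0.0444 in Model and 0.160 ± 0.0412 in LIPUS. Every LIPUS sample, 0.0948 to 0.207, was below every Control sample, 0.229 to 0.451, with Model between and overlapping both. RT1-DMa to RT1-DMb was 1.59 to 2.26 in Control, 1.55 to 1.74 in 4 Model samples and 0.419 in Model_10, against 0.821 to 1.38 in 4 LIPUS samples, all below the Control range, and 5.94 in LIPUS_10, the sample with the highest mitochondrial share.

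RT1 genes belong to a multigene family with closely similar copies, so reads may have been divided between neighbours in the authors' counting, and levels of single chains are uncertain to that extent. Other chains of the region were hardly detected: RT1-DOa and RT1-DOb, the chains of DO, a modulator of DM, had Control means of 0.311 and 0.377 FPKM, and none of the 4 matched genes RT1-DOa, RT1-DOb, RT1-Db2 and RT1-Ha passed the filter.

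**Figure D2:**
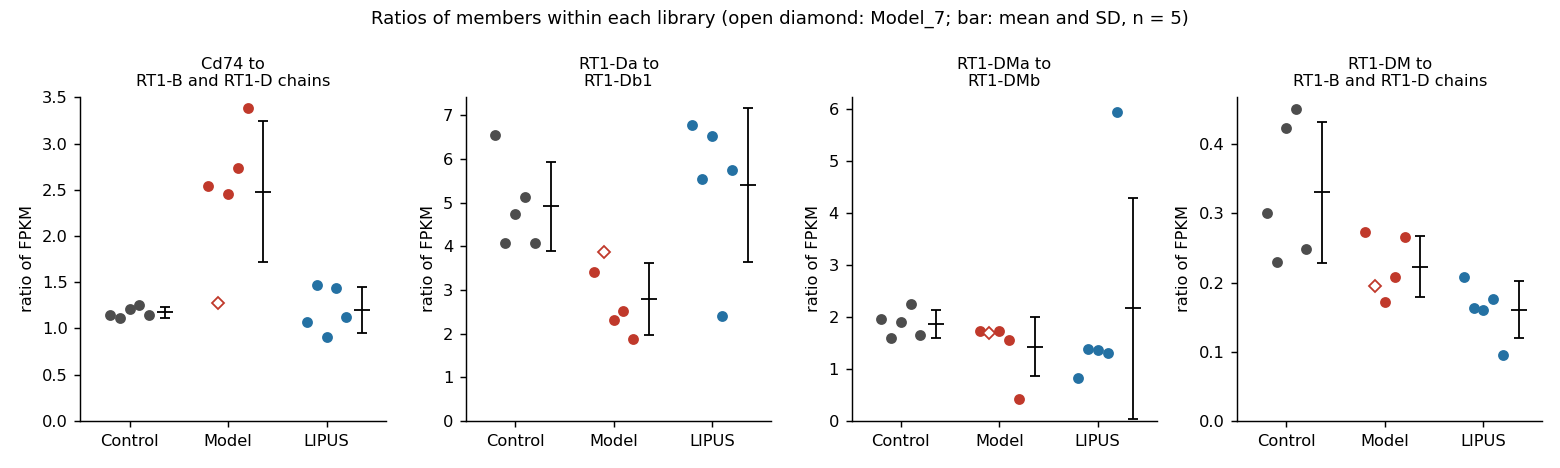
Ratios of FPKM within each library (vertical axes, linear, from 0); each point is 1 sample and bars give the mean and SD (n = 5). Cd74 relative to the RT1-B and RT1-D chains was 2.46 to 3.38 in 4 Model samples, and 0.904 to 1.47 in Control, LIPUS and Model_7.

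Model against Control asks how the prostatitis model differs from untreated tissue. All 8 genes had lower log2 means in Model as deposited, with log2 changes from -2.08 for RT1-Bb and -2.02 for RT1-DMa to -0.28 for Cd74 and a median of -1.42, beside -0.90 over all genes. RT1-Ba, RT1-Bb, RT1-Da and RT1-DMa, 4 of 7 tested, were past the threshold of adjusted p under 0.05, and each of these had groups that did not overlap. In this comparison 43.1% of all genes were called lower and 2.95% higher, and 41.4% had groups apart with Model lower and 3.16% with Model higher. After scaling the median was -0.65, beside -0.15 over all genes, with RT1-Bb at -1.36 ± 0.35 (SE), RT1-DMa at -1.25 ± 0.51, RT1-Ba at -0.84 ± 0.52, RT1-Da at -0.62 ± 0.51, RT1-Db1 at 0.23 ± 0.59 and Cd74 at 0.50 ± 0.63. RT1-Bb was then the only gene past the threshold and the only one with groups apart, where 20.2% of genes were called lower and 15.3% higher and 18.3% and 14.1% had groups apart. Without Model_7 the deposited change of Cd74 turned to 0.40 and that of RT1-Db1 to 0.02, so the shared direction of the 8 rests on that sample, and RT1-Da was no longer past the threshold, at -0.94. On scaled values without Model_7 the change of Cd74 was 1.24 and past the threshold, that of RT1-Da -0.11, and that of RT1-Bb -1.37. The samples that gave these shares also chose the genes, so nothing is read from them.

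LIPUS against Model asks what the ultrasound-treated samples show beside the untreated model. All 8 genes had higher log2 means in LIPUS as deposited, from 0.18 for Ciita to 2.05 for RT1-Bb, with a median of 0.71 beside -0.60 over all genes. Without Model_7 the deposited change of Cd74 turned to -0.39 and that of RT1-Db1 to -0.05. RT1-Bb alone was past the threshold and had groups apart, in a comparison where 1.31% of genes were called higher and 13.3% lower, and 0.536% had groups apart with LIPUS higher and 4.22% with LIPUS lower. After scaling the changes were 2.68 ± 0.35 (SE) for RT1-Bb, 2.09 ± 0.51 for RT1-Da, 1.98 ± 0.52 for RT1-Ba, 1.53 ± 0.51 for RT1-DMa, 1.15 ± 0.59 for RT1-Db1, 1.13 ± 0.60 for RT1-DMb and 0.95 ± 0.63 for Cd74. RT1-Bb, RT1-Da and RT1-Ba were past the threshold and RT1-Bb and RT1-Ba had groups apart, where 2.73% of genes were called higher, 1.49% lower, and 1.63% and 1.29% had groups apart. Without Model_7 the same 3 stayed past it at 2.69, 1.58 and 1.58, and Cd74 was at 0.21. With the 2 groups fitted alone on scaled values, most or all of these 3 calls were lost. Over 27 settings of the fit, most of them on deposited values, RT1-Bb was past the threshold in 24, RT1-Da in 5 and RT1-Ba in 4. The settings reuse the same samples, and the genes were chosen with their values known. These counts therefore describe how the fit behaves and are no test of the genes.

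LIPUS against Control sets the treated samples beside untreated tissue. As deposited 6 of the 8 genes were lower and 2 higher, with a median of -0.15 beside -1.48 over all genes, and none was past the threshold or had groups apart. The lowest were RT1-DMa at -1.13 ± 0.50 (SE) and RT1-DMb at -0.92 ± 0.66. In this comparison 74.4% of genes were called lower and 0.953% higher, and 59.4% and 0.416% had groups apart. After scaling all 8 were higher, with a median of 1.23 beside -0.15, from 1.47 ± 0.51 for RT1-Da and 1.45 ± 0.63 for Cd74 to 0.28 ± 0.51 for RT1-DMa and 0.27 ± 0.47 for Ciita. RT1-Bb, at 1.32 ± 0.35, and RT1-Da were past the threshold and had groups apart, beside 11.6% of genes called higher, 14.3% called lower, and 11.2% and 15.3% with groups apart. Without Model_7, RT1-DMa was past the threshold as deposited, and RT1-Db1 and Cd74 were past it as well after scaling. Here too the calls of the chosen genes are a description, and nothing is read from them. The direction of the 6 genes that were lower as deposited thus turns on the scaling. The comparisons share samples, so their changes are set side by side and no relation between them is computed.

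**Figure D3:**
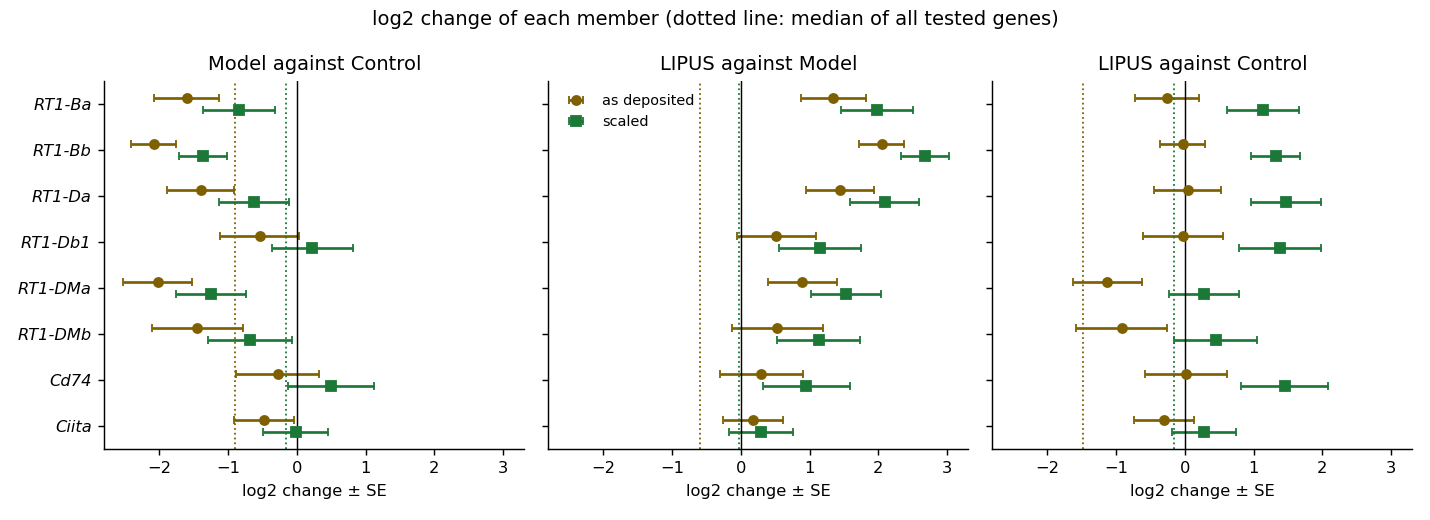
log2 change of each gene (horizontal axis) with its SE in the 3 comparisons, as deposited (circles) and after median-of-ratios scaling (squares); dotted lines are the medians over all 12490 genes tested. Scaled changes of LIPUS against Control lie to the right of 0 for all 8 genes, from 0.27 to 1.47, while the deposited ones run from -1.13 to 0.04.

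The other genes of the pathway were taken from a list by role, not by how they moved: 36 genes, of which 35 were in the table and 25 passed the filter. Each of these was tested in the fit over all 12490 genes. The list and the tests were chosen with earlier results of these data known, so the p-values are not those of an independent test. Model against Control, 11 of 25 fell and none rose as deposited, beside 43.1% and 2.95% of all genes, and 5 fell and 3 rose after scaling, beside 20.2% and 15.3%. LIPUS against Model, 2 rose as deposited and 3 after scaling, beside 1.31% and 2.73% of all genes, with none lower. Without Model_7 the deposited calls were 2 higher and 7 lower, and the scaled calls 6 higher and 2 lower. The shares of all genes called without Model_7 are not given here, so nothing is read from these counts about the pathway. LIPUS against Control, 17 fell as deposited, beside 74.4% of all genes, while 6 rose and none fell after scaling, beside 11.6% and 14.3%. The shares that fell as deposited against Control were thus near those of all genes.

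Among transcription factors of class II promoters, Rfx5, Creb1, Nfya and Nfyb, parts of the RFX, CREB and NF-Y complexes on the X and Y boxes, fell in Model as deposited (4 of 7, adjusted p from 0.00286 to 0.0149) and none of them after scaling. Rfxank, the ankyrin subunit of RFX, rose by 1.17 ± 0.29 after scaling (adjusted p = 0.00538), from 2.46 ± 0.475 to 5.75 ± 1.50 scaled FPKM, and by 0.41 with adjusted p = 0.332 as deposited. Rfxap, the third RFX subunit, rose by 1.02 ± 0.37 after scaling (adjusted p = 0.0419) and kept that call in 5 of 15 fits that each left out 1 sample, losing it without any single Control sample, Model_6, Model_8, Model_9, Model_10 or LIPUS_8. Rfxank kept its call in all 15. Nfyc was at 0.20 with adjusted p = 0.346 after scaling. LIPUS against Model, no gene of the 7 passed the test on either scale.

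Of 6 tested genes on the route from interferon gamma to class II, 5 were called lower in Model as deposited and 4 after scaling. Over all genes, 43.1% and 20.2% were called lower. Irf1, a factor that drives Ciita after interferon gamma, fell from 3.33 ± 0.785 to 0.829 ± 0.411 FPKM as deposited (adjusted p = 0.000822). After scaling it fell by 1.25 ± 0.38 (adjusted p = 0.0183), from 1.93 ± 0.455 to 0.831 ± 0.447 scaled FPKM. The receptor chain Ifngr2 fell by 0.82 (adjusted p = 0.0301), and the receptor kinases Jak1 and Jak2 by 1.25 and 0.87 (adjusted p = 0.0222 and 0.0141), all after scaling. These 4 of 6 tested genes also fell as deposited, as did Ifngr1, which had adjusted p = 0.0750 after scaling. The scaled call of Ifngr2 was lost without Control_7, Control_8, Model_8, Model_9 or Model_10, that of Jak1 without Model_9 or Model_10, and that of Irf1 without Control_7. Ifng itself had no read in any Control or Model library and 9 reads in LIPUS, all of them in LIPUS_10.

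Irf1 was higher again in LIPUS than in Model. It rose by 1.66 ± 0.38 after scaling (adjusted p = 0.0293), from 0.831 ± 0.447 to 2.76 ± 1.34 scaled FPKM, with all LIPUS samples above all Model samples. The call was lost without Model_8, Model_10, LIPUS_8 or LIPUS_10. As deposited the change was 1.04 with adjusted p = 0.0786. Against Control the scaled change was 0.41 with adjusted p = 0.469. As deposited Irf1 was lower there, by a log2 change of -0.97 with adjusted p = 0.0369. That call was kept in 8 of 15 fits with a sample left out, so the direction against Control turned on the scaling.

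Of the endosomal proteases, Ctss, cathepsin S, the main enzyme of late invariant chain cutting in antigen-presenting cells, rose in LIPUS against Model on both scales. Its FPKM came to 15.3 ± 3.69 in Control, 10.4 ± 2.54 in Model and 21.6 ± 4.61 in LIPUS. The LIPUS samples, 16.8 to 28.8, were above all Model samples, 6.06 to 12.6. The log2 change was 1.07 ± 0.27 as deposited (adjusted p = 0.0283) and 1.72 ± 0.28 after scaling (adjusted p = 0.00761). It was 1.93 ± 0.28 against Control after scaling. Other lysosomal cathepsins were more abundant. Ctsl, at 151 ± 78.7 FPKM in Model and 75.0 ± 38.4 in LIPUS, changed by -0.27 ± 0.46 after scaling with adjusted p = 0.733, and Ctsd by -0.08 ± 0.53 with adjusted p = 0.937. Calls on this list of 7 depended on Model_7. Without it, 4 were called lower and 1 higher in LIPUS against Model as deposited, and 2 lower and 2 higher after scaling. Model against Control after scaling, 4 were called higher without Model_7 and none with it. No share of all genes called without Model_7 stands beside these counts, so nothing more is read from them. Ctsb and Lgmn, further endosomal proteases, rose in LIPUS against Control after scaling by 1.19 and 1.21 (adjusted p = 0.0224 and 0.0288), but were at -0.24 and -0.21 as deposited. The scaled call of Ctsb was lost without Control_10, LIPUS_6 or LIPUS_9, and that of Lgmn was kept in 8 of 15 fits. As deposited 4 genes of this list, Ctsl, Ctsd, Ctsh and Ifi30, fell in that comparison, beside 74.4% of all genes.

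For surface turnover, Marchf8, a ubiquitin ligase that removes class II from the surface, fell in Model from 22.1 ± 1.80 to 6.62 ± 3.18 FPKM, by 1.82 ± 0.31 as deposited and 1.05 ± 0.22 after scaling (adjusted p = 0.00172), and kept the scaled call in all 15 fits with a sample left out. Cd83, which protects class II from such ligases, rose in Model after scaling by 0.90 ± 0.30 (adjusted p = 0.0323) and kept that call in 8 of the 15 fits, losing it without Control_6, Control_7, Control_8, Control_10, Model_6, Model_8 or Model_9.

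Cd4, the co-receptor that binds class II, which in rats is carried by macrophages as well as helper T cells, fell in Model as deposited, from 4.28 ± 1.09 to 1.38 ± 0.933 FPKM (log2 change -1.79 ± 0.42, adjusted p = 0.00281). After scaling that change was -1.04 with adjusted p = 0.0823. In LIPUS it was 5.19 ± 1.86 FPKM, with all samples, 3.07 to 7.46, above all Model samples, 0.435 to 2.43. It rose there by 2.02 ± 0.42 as deposited (adjusted p = 0.0250) and by 2.67 ± 0.45 after scaling (adjusted p = 0.00799). Cd86, a co-stimulatory ligand, changed by 0.95 ± 0.56 after scaling with adjusted p = 0.297, and Cd80, Cd40 and Cd274 did not pass the filter.

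The calls of LIPUS against Model depended on the samples in the fit. With the 2 groups fitted alone, none of the 25 pathway genes was called on either scale, and adjusted p was 0.143 for Cd4 and Ctss as deposited and 0.0777 and 0.0754 after scaling. As deposited Cd4 lost its call without Model_8, Model_9, Model_10 or LIPUS_6, and Ctss without these or Model_6, and pathway calls ranged from 0 to 9, with the highest value without Model_7. After scaling both kept the call in all 15 fits, and the count was 2 to 8, also highest without Model_7.

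**Figure D4:**
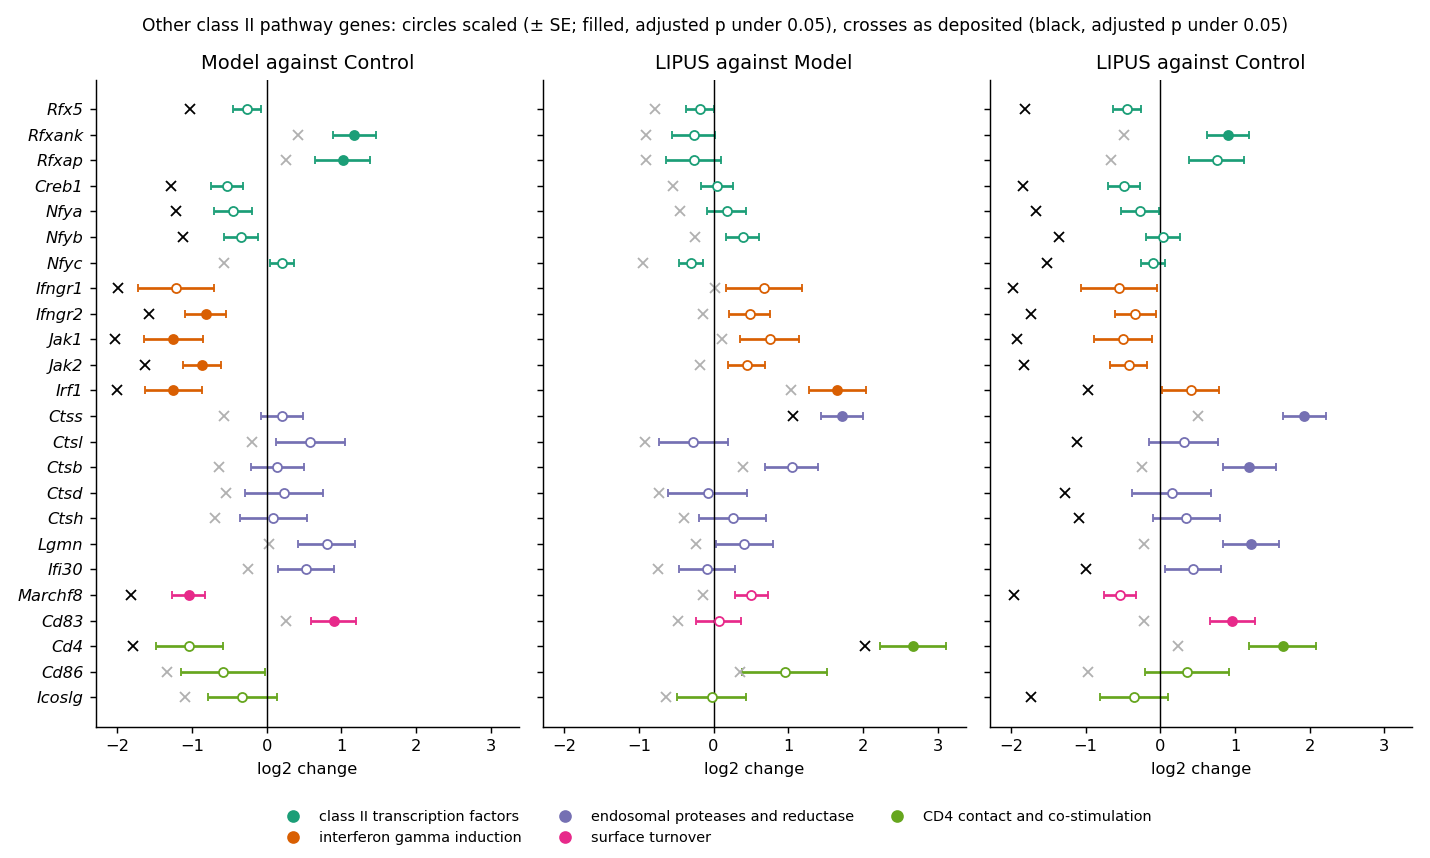
log2 change of 24 of the 25 tested genes of the class II pathway outside the set (horizontal axis), after scaling (circles with SE, filled at adjusted p under 0.05) and as deposited (crosses, black at adjusted p under 0.05), coloured by role. Ctss and Cd4 lie at 1.72 and 2.67 in LIPUS against Model after scaling, and deposited crosses lie to the left of the circles in all 3 panels.

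Markers of the cells that carry class II were set beside it. All 15 macrophage and monocyte genes passed the filter. LIPUS against Model, 6 rose as deposited and 7 after scaling with none lower, beside 1.31% and 2.73% of all genes called higher, and the list's median change was 1.61 after scaling beside -0.02 over all genes. Lyz2, lysozyme, was 53.6 ± 19.2, 75.7 ± 104 and 148 ± 102 FPKM in Control, Model and LIPUS, with adjusted p = 0.0515 for LIPUS against Model after scaling. C1qa, a chain of the complement starter C1q, rose from 24.2 ± 10.6 to 43.8 ± 8.06 FPKM (adjusted p = 0.0467 as deposited and 0.0194 after scaling), and C1qc, another chain, by 1.64 ± 0.33 after scaling (adjusted p = 0.0184). Without Model_7, 8 rose as deposited and 10 after scaling, counts given with no share of all genes from those fits. With the 2 groups fitted alone each of the 6 and 7 calls was lost. Adjusted p was then 0.143 to 0.164 as deposited and 0.0514 to 0.171 after scaling. C1qa kept its deposited call in 3 of 15 fits with a sample left out and its scaled call in all 15. Model against Control, 6 of the 15 macrophage genes fell as deposited, beside 43.1% of all genes. After scaling 3 rose and 3 fell, beside 15.3% and 20.2%, so these shares were near those of all genes. LIPUS against Control, 6 rose and 3 fell as deposited, beside 0.953% and 74.4% of all genes. After scaling 9 rose and 1 fell, beside 11.6% and 14.3%, with a median change of 2.05 beside -0.15. Each of these calls was kept with the 2 groups fitted alone. The deposited fall of Cx3cr1 was kept in 8 of 15 fits with a sample left out.

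The summed class II level did not follow the summed macrophage level in every sample. Divided by the macrophage sum, the 7 class II genes gave 0.458 to 0.705 in Control, 0.564 to 1.23 in 4 Model samples and 0.0335 in Model_7, and 0.118 to 0.671 in LIPUS. Model_7 had the lowest class II sum of all samples and the highest macrophage sum of the Model group, 291 scaled FPKM against 110 to 164. Lyz2 alone made up 226 of that 291. The other 14 genes, a split made after these values were seen, summed to 65.7 in Model_7, the lowest of the Model group, against 85.0 to 132, and the class II sum relative to them was 0.149 in Model_7 and 0.733 to 1.61 in the other Model samples. LIPUS_6 had 556 scaled FPKM of macrophage genes with the lowest class II sum of its group. Lyz2 made up 322 of that 556, and the other 14 genes summed to 234, against 141 to 465 in the other LIPUS samples. The class II sum relative to those 14 genes was 0.280 in LIPUS_6 and 0.465 to 1.05 in the other LIPUS samples. The part of macrophage content in the class II changes was not tested.

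Dendritic cell genes were scarce: 3 of 9 in the table passed the filter, and their sum came to 6.14 to 10.2 FPKM in Control, 2.02 to 7.04 in Model and 4.10 to 13.9 in LIPUS. Clec10a, a lectin of dendritic cells and macrophages, rose in LIPUS against Model from 2.36 ± 0.724 to 6.74 ± 2.71 FPKM (adjusted p = 0.0253 as deposited and 0.00761 after scaling), with adjusted p = 0.143 and 0.0758 in the fit of the 2 groups alone. Irf8 was at 1.09 ± 0.40 after scaling with adjusted p = 0.113, and Batf3 at 0.94 ± 1.01 with adjusted p = 0.573. Xcr1, Flt3, Itgax, Clec9a, Zbtb46 and Ccr7 did not pass the filter, and Ccr7 was listed at 0 in every Model sample. The ratio of class II to the dendritic sum came to 10.5 to 18.5 in Control, 5.61 to 29.8 in Model and 8.93 to 14.8 in LIPUS. Model_7 was the lowest sample.

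B and plasma cell genes were near 0 in every group, with none of 7 passing the filter and a sum of 0.131 to 0.358 FPKM in Control, 0 to 0.973 in Model and 0 to 1.56 in LIPUS. Cd79a, a chain of the B cell receptor, had the highest mean of them, 0.361 ± 0.283 FPKM in LIPUS. Of the T cell list 4 of 8 passed, and Cd3g, a chain of the T cell receptor complex, rose in Model from 0.888 ± 0.281 to 3.44 ± 2.08 FPKM (adjusted p = 0.0227 as deposited and 0.00242 after scaling). LIPUS against Model its change was -0.27 ± 0.55 as deposited, with adjusted p = 0.739. The other tested genes of the list, Cd8a, Cd2 and Lck, were not called in any comparison, and Lck, a kinase of T cell receptor signalling, was at -1.30 in Model as deposited with adjusted p = 0.0513.

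Class I peptide loading and immunoproteasome genes, which share interferon induction with class II, were set beside it as well. B2m, the class I light chain, was 387 ± 192, 849 ± 494 and 323 ± 225 FPKM in Control, Model and LIPUS and not called. Psmb8, an immunoproteasome subunit, rose in Model after scaling by 1.50 ± 0.36 (adjusted p = 0.0043), and Tapbp, the peptide loading factor tapasin, fell as deposited (adjusted p = 0.0179) and was at -0.65 with adjusted p = 0.259 after scaling. Over the list, 2 of 13 rose and 2 fell in Model after scaling, beside 15.3% and 20.2% of all genes. In LIPUS against Model 3 rose after scaling, Tap2, RT1-S3 and RT1-M3-1, beside 2.73%. With the 2 groups fitted alone each of these 3 calls was lost, with adjusted p of 0.105 to 0.193. With a sample left out, RT1-M3-1 kept its call in 2 of 15 fits, Tap2 in 13 and RT1-S3 in all 15. The class II sum divided by the class I sum came to 0.139 to 0.333 in Control, 0.0442 to 0.137 in Model and 0.243 to 0.473 in LIPUS. All Model samples, Model_7 included, lay below all Control and LIPUS samples in this ratio, although Model_6, at 0.137, was close to Control_7, at 0.139. B2m is the largest term of the class I sum.

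**Figure D5:**
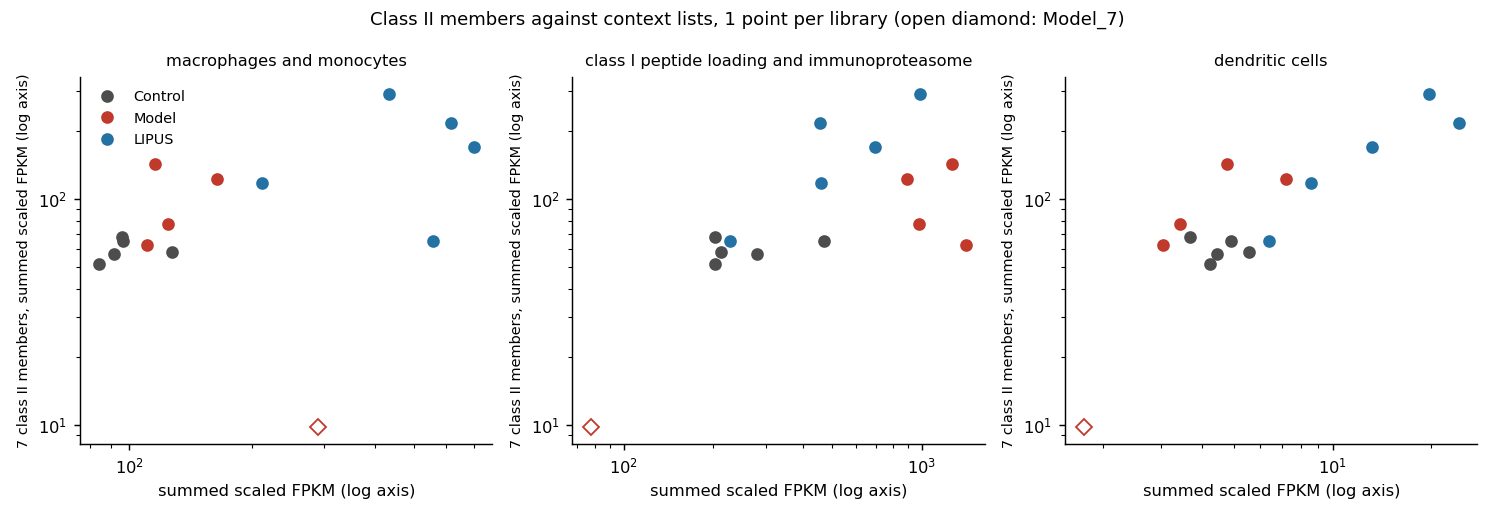
Summed scaled FPKM of the 7 class II genes (vertical axis, log scale) against the summed scaled FPKM of 3 gene lists (horizontal axes, log scale), 1 point per sample (open diamond, Model_7). Model_7 has the lowest class II sum, 9.76, with 291 for macrophage genes, of which 226 is Lyz2, and Model samples have low class II for their class I sums.

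The genes whose within-group deviations were most like those of the class II set were ranked over the 15 samples, among 9563 genes averaging 1 FPKM or more, by Pearson's r on scaled values. They were Ckap4 (0.94), an endoplasmic reticulum membrane protein; Psen2 (0.94), presenilin 2 of the γ-secretase; Lum (0.94), lumican, a matrix proteoglycan; Ifngr1 (0.94), the ligand-binding chain of the interferon gamma receptor; Mesd (0.94), a receptor chaperone; Plpp1 (0.93), a lipid phosphatase; Wdr38 (0.93); and Lpar1 (0.93), a lysophosphatidic acid receptor. Without Model_7 the same 8 values were 0.83 to 0.88, so part of the likeness comes from that sample. Among listed genes, Ctsh reached 0.85, B2m 0.84 and Clec10a 0.83, while Ctss reached 0.34, Cd4 0.05 and Jak1 -0.70. The samples share library size and composition, and no test is attached to these values.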

How the data were processed

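Per the labels' protocols, RNA was taken up in TRIzol and libraries came from a VAHTS Universal V5 kit. The authors deposited FPKM for 22436 genes, 18127 protein coding and 4309 non-coding. The submitters' processing notes name fastp, HISAT2, SAMtools, HTSeq, DESeq2, R 3.2.0 and genome build rn6, with no role, order or strand. FPKM keep each gene's read count as whole multiples: a search for gene lengths and library sizes gave whole reads within 0.001 for all 22436 genes, which is no check for 1802 genes seen in 1 library. No 2 libraries were copies (lowest chi-square per degree of freedom 75.1).

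Genes above 0.5 FPKM in at least 5 of 15 samples, 12490 in number, were fitted as log2(FPKM + 0.1) with limma 3.58.1 in R 4.3.3: all 15 samples in 1 fit, 1 mean per group, empirical Bayes with an intensity trend, two-sided, Benjamini-Hochberg over all 12490. Fold changes are on that log2 scale, which understates low genes. Scaled values are FPKM divided by median-of-ratios factors from 10313 genes and went through the same fit. The fit and the read search were checked on simulated data. Alternatives were other scalings, pseudocounts and filters, the 2 groups alone, replicate blocks, limma-voom on recovered reads and leaving out each sample; scaled fits with a sample left out or with 2 groups were added after seeing the data.

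The 8 genes, the pathway and marker lists and the tests were chosen with earlier results of these data known. Named genes are the 8, called pathway genes (up to 4 a role by smallest p, and up to 2 not called), the 3 most abundant of each marker list, and the 8 most alike. The motif letters were chosen after seeing the promoters. Promoters of RT1-DMb and Ciita were not analysed here. The values of 1 pathway gene, which stays in the counts, are not reported here.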

Additional observations from a re-analysis of the deposited data

Results flagged for a closer look

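Ciita in Control_7, at 0.260 FPKM, lay apart from the other Control samples, with a gap to the nearest of them of 0.765 of the group's range. The 24 groups of 5 samples, 8 genes in 3 groups, were examined, and chance alone sets an extreme sample apart in about 1 of 20 such groups. The value rests on 54 reads.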

How the results depend on the processing

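Scaling, the samples in the fit and the replicate block each moved many results. LIPUS against Control, the median change of the 8 genes was -0.15 as deposited and 1.23 with median-of-ratios scaling, 1.14 with quantile normalization, 1.18 when scaled to nuclear reads and 1.23 with replicate block and scaling, and the change of RT1-Bb turned from -0.03 to 1.32, 1.61, 1.28 and 1.32 under these 4, and that of RT1-Db1 from -0.03 to 1.48 under quantile normalization. In the same order genes called there went from 9415 to 3230, 2945, 2810 and 2862 and pathway genes from 17 to 6, 6, 6 and 6. LIPUS against Model, calls went from 1820 to 527 (median-of-ratios), 464 (quantile), 315 (nuclear reads), 812 (no filter), 3 (2 groups only), 3 (replicate block) and 128 (replicate block with scaling), pathway calls from 2 to 0 with 2 groups only and 0 with the block. On scaled values the 2 groups alone gave 1 gene and 0 pathway genes. Model against Control, a stricter filter gave 3379 calls against 5750, quantile normalization and nuclear reads 7 and 7 pathway calls against 11, and quantile normalization a median member change of -0.39 against -1.42. Leaving out 1 sample gave 8 to 4576 calls and 0 to 9 pathway calls for LIPUS against Model as deposited, with calls lowest without Model_9 and highest without LIPUS_7 and pathway calls highest without Model_7, and 115 to 4001 and 2 to 8 after scaling; scaled pathway calls were 4 to 14 for Model against Control, highest without Model_7, and 2 to 7 for LIPUS against Control. Limma-voom on recovered reads called 5997, 1880 and 9420 genes in the 3 comparisons. Same-numbered samples showed little likeness: 4 of 15 such pairs had deviations correlated over 0.1 (-0.42 to 0.25), and the block gave the values above. These correlations cannot show whether same-numbered samples were handled together, and the labels do not say. Depth limits Ciita and, in Model, RT1-Bb, which had 10 to 21 reads a library.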
